A study of Mus musculus with 8 samples.

Results

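The NF-kB subunits, inhibitors and activators described here are 10 genes: the subunits Nfkb1, Nfkb2, Rel, Rela and Relb, the inhibitors Nfkbia, Nfkbiz and Tnfaip3, the kinase Ikbkb and the adaptor Traf6. They were found by their symbols in the table of raw counts, which lists 24062 genes, and all 10 were among the 13197 genes that passed the filter on low counts. RNA was sequenced from myeloid cells that the study calls immature myeloid cells (IMCs). There were 8 libraries, 2 in each of 4 groups, all from C57BL/6 mice at the age of 2 months. The PARP1 WT group was PARP1 flox/flox and the PARP2 WT group PARP2 flox/flox, in each case without Cre, so that the controls carried the floxed allele too. The PARP1CKO and PARP2CKO groups carried the same floxed alleles with a lysozyme-Cre, which deletes the gene in cells of the myeloid lineage that express lysozyme, and cells in the culture that do not express it keep the gene. Bone marrow cells were expanded for 3 days with M-CSF at 40 ng/mL, the growth factor of macrophages, before RNA was taken. The labels do not say whether replicates came from separate mice, so p-values measure the spread between these libraries, which may be technical in part.

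NF-kB is a family of dimeric transcription factors built from 5 subunits that share a Rel homology domain. In a resting cell the dimers are held in the cytoplasm by IkB proteins. Signals from Toll-like, interleukin 1 and TNF family receptors pass through adaptors such as TRAF6 to the IKK kinases, which mark IkB for destruction and free the dimers to enter the nucleus. In macrophages and their precursors this pathway drives inflammatory cytokines and chemokines, and the IkB proteins and A20 that it induces switch it off again. The activity of the pathway is set largely by protein modification and location, which counts of RNA do not measure. The comparisons ask whether loss of PARP1 or PARP2 came with other RNA levels of the genes that build and restrain this pathway. Each of them also sets cells with Cre against cells without it.

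The promoters of 2 members are shown because Tnfaip3 and Nfkbia had the smallest unadjusted p-values among the 10 genes in the PARP2CKO and PARP1CKO comparisons, and both are textbook targets of NF-kB. RefSeq promoter windows on GRCm38.p6 (mm10), which run from 250 bases before to 50 bases after a start site, were given for 6 of the 10 genes in 9 windows. Each window was searched on both strands for the kB consensus, the 10-base motif that NF-kB dimers bind, and overlapping matches were merged. The 150 bases before the start are given on the strand of the gene, 5′ to 3′, at chr10:19015411-19015560 (minus strand) for Tnfaip3 and at chr12:55492648-55492797 (minus strand) for Nfkbia, with the matches in capitals.
Tnfaip3: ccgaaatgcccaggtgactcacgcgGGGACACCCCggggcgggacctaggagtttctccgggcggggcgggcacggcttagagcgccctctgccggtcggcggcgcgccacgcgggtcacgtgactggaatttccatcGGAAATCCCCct
Nfkbia: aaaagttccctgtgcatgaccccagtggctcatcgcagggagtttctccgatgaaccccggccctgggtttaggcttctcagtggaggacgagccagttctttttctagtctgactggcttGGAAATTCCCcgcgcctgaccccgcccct
The matches of Tnfaip3 began 125 and 12 bases before the start, and the match of Nfkbia began 29 bases before it. Rel and Nfkb2, which encode subunits, also held matches, shown as stretches of 30 bases at chr11:23771042-23771071 (minus strand) and chr19:46304688-46304717 (plus strand), the latter from the window of the most upstream of 3 Nfkb2 starts.
Rel: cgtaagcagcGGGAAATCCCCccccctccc
Nfkb2: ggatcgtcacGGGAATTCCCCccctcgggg
In all, 4 of the 6 genes with a window held a match, against 4.51% of the 32851 windows of that length and 604 of the 9800 tested genes with a window (6.16%). The windows of Rela and Traf6 held none, nor did the other window of Tnfaip3. The stretches shown for Tnfaip3 and Nfkb2 lie inside the spans of these genes in the GENCODE annotation, which begin further upstream than the RefSeq starts used here. A match is a stretch of letters and not a measured binding site.

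Libraries held between 37852450 and 61845125 gene counts. Parp1 checked the labels of the PARP1 line. It had 202 and 211 CPM, or counts scaled to a common library size, in PARP1 WT against 63.2 and 59.1 CPM in PARP1CKO (p adjusted by Benjamini-Hochberg 0.0134, edgeR's quasi-likelihood test). Parp2 had 48.2 and 48.3 CPM in PARP2 WT against 25.7 and 25.6 CPM in PARP2CKO (adjusted p = 0.000139). Counts cover whole genes, so reads from exons outside the deleted part are included. In PARP2 WT replicate 2 Parp1 stood at 155 CPM, against 251 CPM in replicate 1. Markers of monocytes and macrophages summed to between 3948 and 4674 CPM and those of immature and granulocytic myeloid cells to between 1923 and 2335 CPM in every library, while 6 T and NK cell markers summed to between 1.34 and 3.50 CPM, with at most 6 counts of Cd3e or Cd3g. In such bulk libraries fewer cells of a type and less RNA per cell cannot be told apart.

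Levels of different genes were compared per kilobase of annotated exon. Nfkbia, which encodes IkB alpha, the main cytoplasmic inhibitor, had the highest level, 35.2 ± 2.12 CPM per kilobase (SD over the 8 libraries, which include all 4 groups). Rela, which encodes the transactivating subunit p65, followed with 27.5 ± 0.955 CPM per kilobase, and its highest library, at 28.8, lay below the lowest library of Nfkbia, at 31.4. Tnfaip3 and Nfkb1 came next with 11.1 ± 0.882 and 9.81 ± 0.271 CPM per kilobase, and their ranges overlapped. Nfkb2 stood at 8.30 ± 0.415, Traf6 at 7.11 ± 0.505 and Ikbkb at 5.33 ± 0.0755 CPM per kilobase, with no overlap between neighbors in this order. Rel, Nfkbiz and Relb were lowest, with 2.13 ± 0.103, 2.06 ± 0.287 and 2.00 ± 0.104 CPM per kilobase, and could not be ordered within their spread.

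The order depended on the length used. The annotated exons of Nfkb1 cover 12.061 kilobases and those of Ikbkb 19.078 kilobases, against 4.117 and 3.58 kilobases in their main transcripts. By main transcript length Nfkb1 reached 28.7 and Ikbkb 28.4 CPM per kilobase, close to Rela at 31.2, and Nfkbia stayed first at 35.9. Of the summed level of the 5 subunits per kilobase of annotated exon, Rela made up between 53.9% and 56.9% in each library, Nfkb1 between 18.9% and 20.3% and Nfkb2 between 15.7% and 18.2%. Rel and Relb made up between 3.99% and 4.53% and between 3.65% and 4.31%. By main transcript length the shares of Rela and Nfkb1 were closer, between 40.3% and 42.9% for Rela and between 37.0% and 38.9% for Nfkb1, and Nfkb2 made up between 12.4% and 14.4%.

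**Figure D1:**
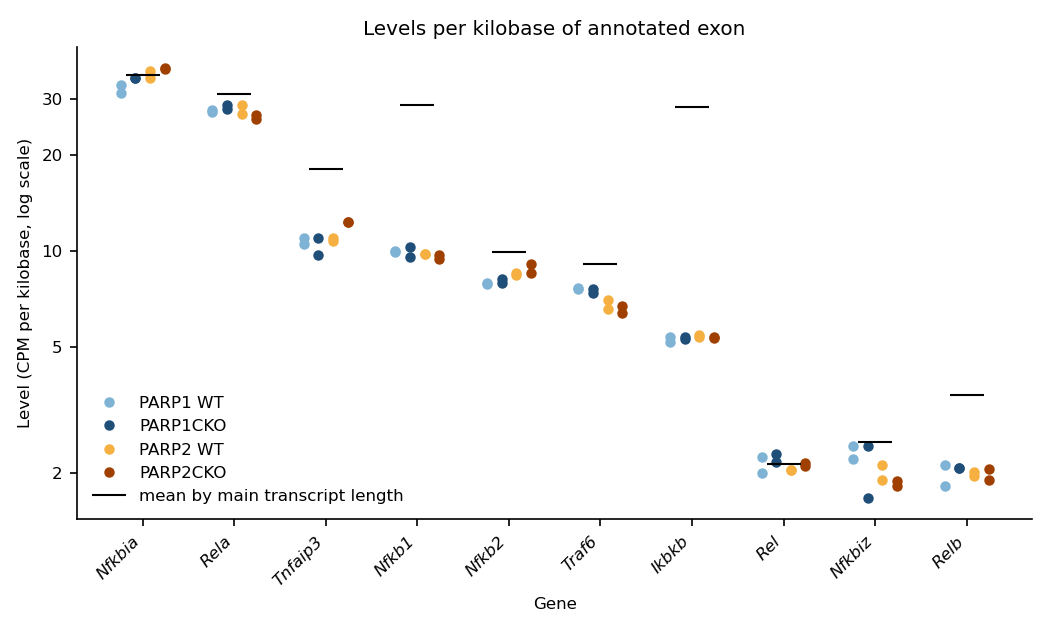
Levels of the 10 NF-kB genes in CPM per kilobase of annotated exon on a log axis, with a point for each of the 8 libraries coloured by group and a dash for the mean by main transcript length. Nfkbia and Rela lie above the other genes by exon length, Nfkb1 and Ikbkb move up by main transcript length, and Rel, Nfkbiz and Relb overlap at about 2 CPM per kilobase.

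No member passed the adjusted p-value of 0.05 in either CKO comparison. As the CKO groups carried Cre and their controls did not, Cre and the loss of the PARP gene cannot be told apart. In the PARP1CKO comparison 14 of the 13197 genes passed (0.106%), and in the PARP2CKO comparison 7 (0.053%). The fitted differences of the 10 genes lay between -0.18 and 0.12 on the log2 scale in PARP1CKO, with a median of 0.02 (all genes 0.01), and between -0.11 and 0.18 in PARP2CKO, with a median of -0.01 (all genes -0.00140). The standard errors of the members had a median of 0.0473 in PARP1CKO and 0.0467 in PARP2CKO, so the intervals were narrow, and the most extreme 95% bounds were -0.53 and 0.31 in PARP1CKO and -0.46 and 0.31 in PARP2CKO. By unadjusted p under 0.05, 1 of 10 members stood out in each comparison, Nfkbia in PARP1CKO and Tnfaip3 in PARP2CKO, against 11.3% and 4.83% of all genes. DESeq2 called 0 members in either comparison as well. With 2 libraries against 2, an exact permutation test of a single gene cannot give a p below 0.333, so the calls rest on the fit across all genes.

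**Figure D2:**
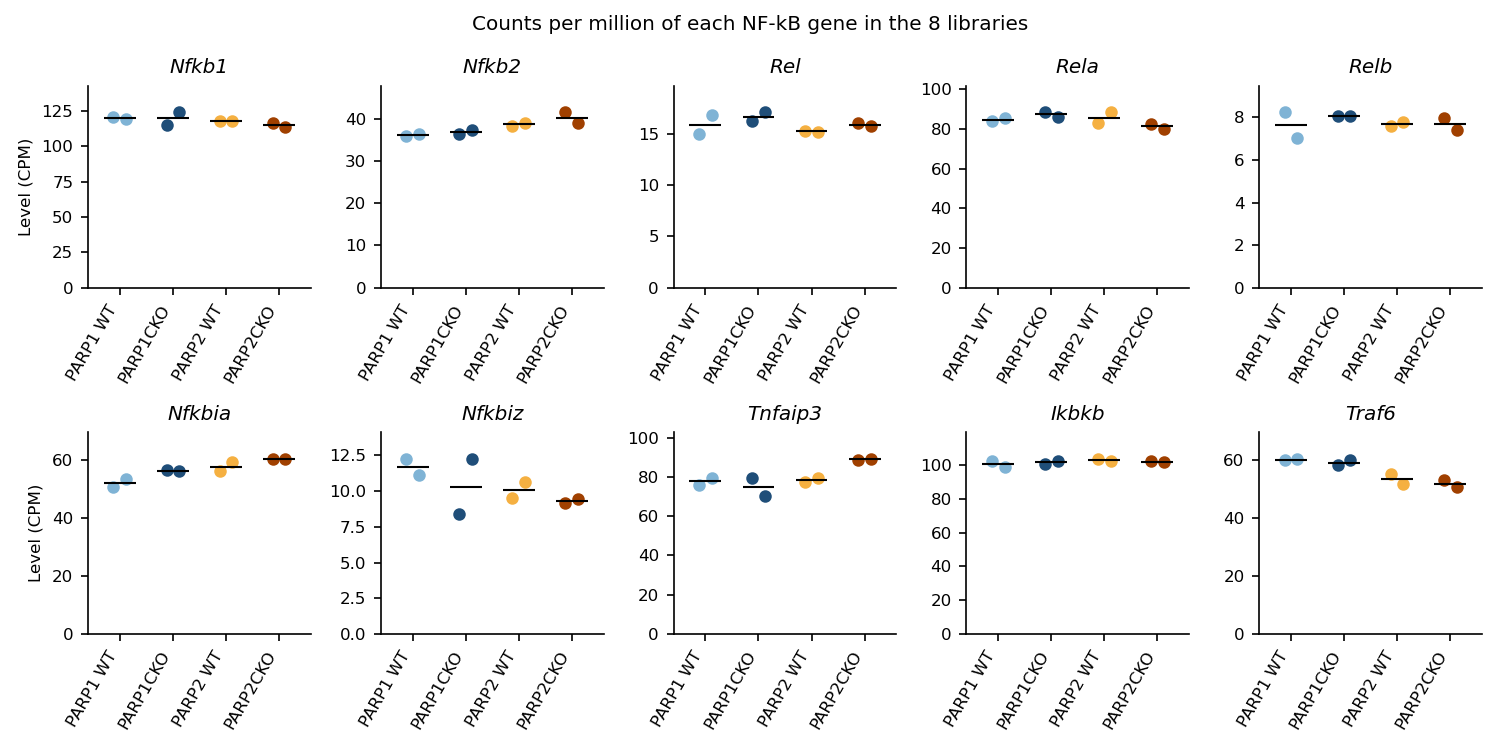
CPM of each of the 10 NF-kB genes in the 8 libraries, with a point for each library, a line at the mean of each group and every vertical axis starting at 0. Most groups lie close together, while Tnfaip3 is highest in the PARP2CKO libraries, Traf6 is lower in all 4 libraries of the PARP2 line and the 2 PARP1CKO libraries differ in Nfkbiz.

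Nfkb1 encodes p105, the precursor of the DNA-binding subunit p50, at chr3:135584655-135691547 (mm10, GENCODE M21). It had 121 and 120 CPM in PARP1 WT, then 115 and 124 CPM in PARP1CKO, 118 and 118 CPM in PARP2 WT, and in PARP2CKO 117 and 114 CPM. The PARP1CKO libraries lay on either side of their controls, and the PARP2CKO libraries lay just below theirs. The differences were -0.00470 in PARP1CKO (95% interval -0.11 to 0.10) and -0.03 in PARP2CKO (-0.13 to 0.07) on the log2 scale. Nfkb1 kept within 1.09-fold from its lowest to its highest library.

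Nfkb2 encodes p100, the precursor of p52, which serves the alternative pathway, at chr19:46304320-46312385. Its levels were 36.0 and 36.4 CPM in PARP1 WT, then 36.4 and 37.4 CPM in PARP1CKO, 38.5 and 39.1 CPM in PARP2 WT, and in PARP2CKO 41.6 and 39.1 CPM. All 4 libraries of the PARP2 line stood above all 4 of the PARP1 line, and each CKO group overlapped its own controls. The differences were 0.03 in PARP1CKO (-0.08 to 0.14) and 0.06 in PARP2CKO (-0.05 to 0.17) on the log2 scale. On the opposite strand the exons of Nfkb2 share 531 bases (11.6%) with the noncoding gene AC114539.1, which was not analysed here, and 299 bases (6.52%) with Psd, which had between 3 and 12 counts per library.

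Rela, at chr19:5637483-5648130, had 83.8 and 85.3 CPM in PARP1 WT against 88.3 and 86.1 CPM in PARP1CKO. In the PARP2 line it had 82.8 and 88.2 CPM without Cre and 82.6 and 79.9 CPM in PARP2CKO. The PARP1CKO libraries lay above and the PARP2CKO libraries below their controls, without overlap. Neither difference passed, with 0.04 in PARP1CKO (-0.06 to 0.14, adjusted p = 0.730) and -0.07 in PARP2CKO (-0.17 to 0.03, adjusted p = 0.954) on the log2 scale. The difference between these effects was -0.12 (standard error 0.0624) and did not pass either (adjusted p = 0.694, quasi-likelihood test).

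Rel encodes c-Rel, a subunit prominent in lymphocytes and activated myeloid cells, at chr11:23736847-23770970. It had 15.0 and 16.8 CPM in PARP1 WT, then 16.2 and 17.1 CPM in PARP1CKO, 15.3 and 15.2 CPM in PARP2 WT, and in PARP2CKO 16.1 and 15.7 CPM. The PARP2CKO libraries lay just above their controls and the PARP1 groups overlapped. Relb encodes the subunit that pairs with p52, at chr7:19606217-19629438. It was the lowest member in CPM, which is not corrected for length, with 8.24 and 7.05 CPM in PARP1 WT, then 8.09 and 8.05 CPM in PARP1CKO, 7.59 and 7.80 CPM in PARP2 WT, and in PARP2CKO 7.996 and 7.39 CPM. Its groups overlapped in both comparisons, and with between 319 and 477 counts per library its standard errors were 0.0989 and 0.0966, compared with 0.0444 and 0.0442 for Nfkb1.

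Nfkbia, at chr12:55489410-55492647, had 50.6 and 53.4 CPM in PARP1 WT against 56.4 and 56.3 CPM in PARP1CKO. In the PARP2 line it had 56.2 and 59.2 CPM without Cre and 60.4 and 60.3 CPM in PARP2CKO. Both CKO groups stood above their own controls without overlap, and PARP1CKO reached the lower library of PARP2 WT. The difference in PARP1CKO was 0.12 on the log2 scale (0.01 to 0.22), with an unadjusted p of 0.0299 and an adjusted p of 0.392 in edgeR's quasi-likelihood test. In PARP2CKO it was 0.07 (-0.03 to 0.16, adjusted p = 0.954). The ratio of Nfkbia to Rela in CPM was lowest in PARP1 WT, 0.603 and 0.626. PARP1CKO followed with 0.639 and 0.654, then PARP2 WT with 0.679 and 0.671, and it was highest in PARP2CKO, 0.732 and 0.755. The 4 groups did not overlap in this ratio, which was formed after the values were seen and was not tested. Other ratios formed, of Tnfaip3 to Rela, Traf6 to Ikbkb and Nfkb2 to Nfkb1, each overlapped between some groups. That of Tnfaip3 to Rela was 0.907 and 0.930 in PARP1 WT and 0.936 and 0.898 in PARP2 WT.

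Nfkbiz encodes IkB zeta, a nuclear IkB protein that works as a cofactor for a subset of inflammatory genes, at chr16:55811375-55838899. It had 12.3 and 11.1 CPM in PARP1 WT, then 8.39 and 12.2 CPM in PARP1CKO, 9.51 and 10.6 CPM in PARP2 WT, and in PARP2CKO 9.14 and 9.46 CPM. It varied most of the 10 genes, with a coefficient of variation of 13.9% over the 8 libraries, and the PARP1CKO libraries were 37.1% of their mean apart. The PARP1CKO difference was -0.18 (-0.53 to 0.17) and turned to 0.068 without PARP1CKO replicate 1. In PARP2CKO both libraries lay below their controls, with a difference of -0.11 (-0.46 to 0.23). At this spread a change of the size seen in Nfkbia was not detectable in Nfkbiz.

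Tnfaip3 encodes A20, a ubiquitin-editing enzyme that ends signals to IKK, at chr10:19000910-19015657. It had 76.0 and 79.4 CPM in PARP1 WT, then 79.6 and 70.1 CPM in PARP1CKO, 77.5 and 79.3 CPM in PARP2 WT, and in PARP2CKO 88.8 and 89.2 CPM. The PARP2CKO libraries stood above the other 6, which lay between 70.1 and 79.6 CPM. The PARP2CKO difference was 0.18 on the log2 scale, a 1.14-fold higher level (95% interval 1.04 to 1.24), with an unadjusted p of 0.0110 and an adjusted p of 0.888 in the quasi-likelihood test. In PARP1CKO the difference was -0.05 (-0.19 to 0.08), and it was 0.034 without PARP1CKO replicate 2. The PARP2CKO effect exceeded the PARP1CKO effect by 0.24 (0.05 to 0.42), with an unadjusted p of 0.0178 and an adjusted p of 0.592. For this difference between effects 7.69% of all genes had an unadjusted p under 0.05 and 0.0152% an adjusted p under 0.05.

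Ikbkb encodes IKK beta, the kinase that phosphorylates IkB alpha, at chr8:22659212-22706589. It was the steadiest member, with 102 and 98.7 CPM in PARP1 WT, then 101 and 102 CPM in PARP1CKO, 104 and 102 CPM in PARP2 WT, and in PARP2CKO 102 and 101 CPM. Its coefficient of variation over the 8 libraries was 1.42%. The differences were 0.02 in PARP1CKO (-0.07 to 0.10) and -0.02 in PARP2CKO (-0.10 to 0.07) on the log2 scale. Traf6, at chr2:101678429-101701669, encodes a ubiquitin ligase that carries Toll-like receptor, interleukin 1 receptor and RANK signals. It had 59.7 and 60.3 CPM in PARP1 WT, then 58.2 and 59.8 CPM in PARP1CKO, 55.1 and 51.7 CPM in PARP2 WT, and in PARP2CKO 52.9 and 50.4 CPM. Each CKO group overlapped its controls, and the differences were -0.02 (-0.13 to 0.08) and -0.05 (-0.15 to 0.06).

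**Figure D3:**
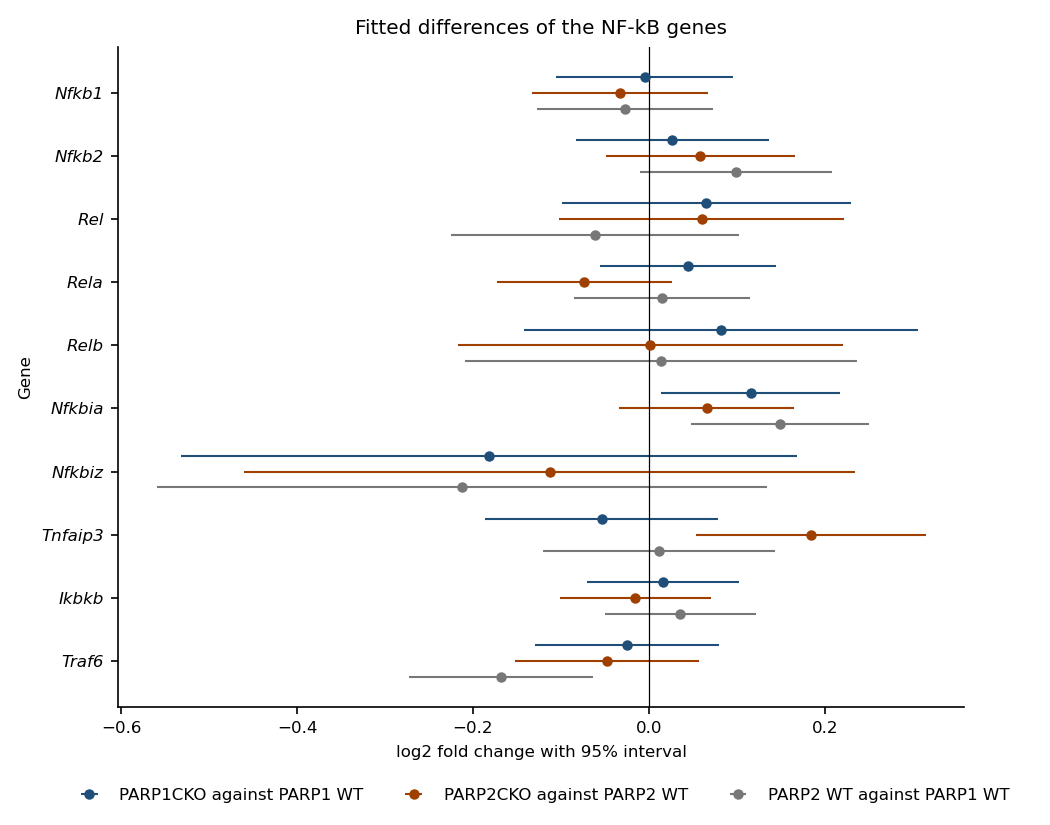
Fitted log2 fold changes of the 10 NF-kB genes with 95% intervals from edgeR's quasi-likelihood fit, for each CKO group against its own WT group and for PARP2 WT against PARP1 WT. The intervals of Nfkbia in PARP1CKO, of Tnfaip3 in PARP2CKO and of Nfkbia and Traf6 between the WT groups leave out 0, and no point passes the adjusted p-value.

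By whether the libraries of 2 groups overlapped, 2 members were higher in both PARP1CKO libraries, Rela and Nfkbia, and 0 were lower, against 21% and 20.2% of all genes. In PARP2CKO 3 were higher, Rel, Nfkbia and Tnfaip3, against 18.4% of all genes, and 4 were lower, Nfkb1, Rela, Nfkbiz and Ikbkb, against 18.8%. The largest of these 4 lower differences was that of Nfkbiz, and each of the 4 intervals included 0.

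The floxed lines differed more from each other than either CKO group did from its controls. Between PARP2 WT and PARP1 WT 417 genes passed (3.16%), and 0 of the 10 members did, while 18.9% of all genes and 2 members, Nfkbia and Traf6, had an unadjusted p under 0.05. Nfkbia was higher in PARP2 WT by 0.15 on the log2 scale (0.05 to 0.25, adjusted p = 0.120) and Traf6 lower by a difference of -0.17 (-0.27 to -0.06, adjusted p = 0.0977). Both PARP2 WT libraries were higher in Nfkb2 and Nfkbia, 2 of 10 members against 26.7% of all genes, and lower in Nfkb1, Nfkbiz and Traf6, 3 of 10 against 25.2%.

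After these values were seen, all 4 libraries of the PARP2 line were compared with all 4 of the PARP1 line in the same fit. In that comparison 3 of the 10 members passed, against 16.4% of all genes, and 4 had an unadjusted p under 0.05, against 31.9%. Traf6 was lower in the PARP2 line, with a difference of -0.18 on the log2 scale (-0.25 to -0.10, adjusted p = 0.00781), and its 4 libraries there, between 50.4 and 55.1 CPM, lay below the 4 of the PARP1 line, between 58.2 and 60.3 CPM. It passed in all 15 alternatives run, with adjusted p-values between 0.000245 and 0.0312. Nfkb2 was higher in all 4 libraries, by 0.11 (0.04 to 0.19, adjusted p = 0.0499), and did not pass with the replicate block (0.0715), with no filter on low counts (0.0547) or with DESeq2 (0.187). With library size alone it was 0.06 higher (0.212). Non-overlap over 4 libraries, higher in Nfkb2 and lower in Traf6, was met by 10.5% and 9.93% of all genes.

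Nfkbia was also higher in the PARP2 line, by 0.12 (0.05 to 0.19, adjusted p = 0.0281), although PARP1CKO and PARP2 WT overlapped. It did not pass with DESeq2 (0.0816), and with library size alone it was 0.07 higher (0.138). The calls of Nfkb2 and Nfkbia lay near the threshold, while their log2 differences with a library left out stayed between 0.09 and 0.14 for Nfkb2 and between 0.11 and 0.15 for Nfkbia. Of the 8 fits with a library left out, Nfkb2 passed only without PARP2CKO replicate 2 (adjusted p = 0.0404), and the others gave between 0.0754 and 0.163. Nfkbia passed without PARP1 WT replicate 2 (0.0248) or PARP2 WT replicate 1 (0.0429), and the other 6 gave between 0.0511 and 0.104. Without PARP1CKO replicate 1, Tnfaip3 (adjusted p = 0.00791) and Nfkbiz (0.0202) passed as well, while with all libraries they gave 0.0603 and 0.299. With all libraries Tnfaip3 passed under the likelihood-ratio test (0.0359) and with no filter on low counts (0.0300). With library size alone as the scale, 1 of the 10 members passed, Traf6.

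Markers of other cell types moved with the line. Their calls are read against the share of all genes that passed in either direction, 16.4% between the lines and 3.16% between the WT groups. The B cell markers Cd79a, Cd79b, Ms4a1 and Pax5 summed to between 22.0 and 30.7 CPM in the PARP1 line and between 6.59 and 8.74 CPM in the PARP2 line, and 4 of 4 fell there (median log2 difference -1.93), as they did between the WT groups (-1.83). The mast cell and basophil markers Cpa3, Mcpt8, Fcer1a and Kit summed to between 36.6 and 39.9 CPM and between 18.6 and 23.1 CPM, and 4 of 4 fell (-0.94). Most of each sum was Kit, with between 14.4 and 31.7 CPM, while Cpa3 had at most 4.81, Mcpt8 at most 4.14 and Fcer1a at most 0.363 CPM. Erythroid markers summed to between 3.04 and 6.02 CPM and between 1.42 and 1.75 CPM, and 2 of 3 tested fell (-1.22). Of the granulocytic markers 2 of 7 rose and of the monocyte and macrophage markers 2 of 6, with medians of 0.14 and 0.11. Of 5 dendritic cell markers 1 rose and 1 fell, and 0 of 4 stromal and endothelial markers passed. Of the T and NK cell markers 2 were tested and 0 passed, while 2 were lower by unadjusted p under 0.05 (all genes 31.9%), with a median of -0.60. No marker passed in either CKO comparison. Mast cell and basophil markers summed to between 18.6 and 19.5 CPM in PARP2CKO and between 22.7 and 23.1 CPM in PARP2 WT (median -0.37). Erythroid markers summed to between 4.84 and 6.02 CPM in PARP1CKO and between 3.04 and 3.62 CPM in PARP1 WT (median 0.83). The part of other cell types in the CKO differences and in the levels of Traf6, Nfkbia and Nfkb2 was not tested. The floxed allele, any difference in background or handling, and the line cannot be told apart.

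The genes whose pattern over the 8 libraries was most like that of each member were looked up among 8672 other genes with a mean of at least 10 CPM, as a description. For Traf6 they were Ttc17 (Pearson's r 0.986), Uck2 (0.985) and Eif2ak4 (0.983). Ttc17 and Eif2ak4 lie on chromosome 2, as Traf6 does, and Uck2 on chromosome 1. For Nfkbia they were Fgd6 (0.985), Dapk1 (0.978) and Zfp703 (0.976), and for Tnfaip3 Pgam1 (0.985), Fmnl3 (0.959) and Lipa (0.958). The closest for the subunits were Ciita to Nfkb1 (0.974), Gps1 to Nfkb2 (0.978), Pdcd7 to Rel (0.930), Sgsm2 to Rela (0.971) and Atg4b to Relb (0.962). For Nfkbiz and Ikbkb they were Mbtd1 (0.968) and Tm7sf2 (0.969). For members other than Traf6, none of the 3 most alike genes lies on the chromosome of its member. The share of the 8672 genes on each chromosome was not counted, and a link to position was not tested. Among the members themselves the most alike pair was Nfkb2 and Nfkbia (0.837), and the most opposed pair was Nfkb1 and Tnfaip3 (-0.845). The 8 libraries share the line as a source of difference.

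The other genes of the pathway were taken from lists by role, chosen with earlier results of these data known. Their counts by unadjusted p under 0.05 are read against 11.3% of all genes in PARP1CKO and 4.83% in PARP2CKO. Of 4 other IkB family genes, 0 passed in either CKO comparison, and 1 was higher in PARP1CKO by unadjusted p under 0.05. Nfkbib, which encodes IkB beta, had 23.9 and 27.0 CPM in PARP1 WT against 30.4 and 31.4 CPM in PARP1CKO, a difference of 0.28 (standard error 0.0692, adjusted p = 0.257). Of 12 genes of the IKK complex and upstream kinases, 0 passed in either CKO comparison, and 1 was lower in PARP1CKO by unadjusted p under 0.05. The smallest unadjusted p-values among them with separate groups belonged to Ripk1 (-0.10) and Map3k14 (0.11) in PARP1CKO and to Ikbkg (0.12) and Irak4 (0.07) in PARP2CKO, as log2 differences.

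Ikbke, an IKK-related kinase of the interferon pathway, was the called gene of that list between the WT groups, where 3.16% of all genes passed. It had 89.9 and 88.6 CPM in PARP1 WT and 102 and 111 CPM in PARP2 WT, a difference of 0.25 (adjusted p = 0.0443), and it passed in the 2 fits without a PARP1CKO library and in none of the 6 others with a library left out.

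Of 19 adaptors and ubiquitin ligases, 0 passed in either CKO comparison, and by unadjusted p under 0.05 3 were higher in PARP1CKO (all genes 11.3% in either direction) and 1 lower in PARP2CKO (4.83%), shares near those of all genes. The log2 differences were 0.11 for Rbck1 and 0.17 for Tradd in PARP1CKO and -0.11 for Rnf31 and -0.12 for Birc3 in PARP2CKO, all short of the threshold. Of 10 other negative regulators 0 passed in either CKO comparison, and by unadjusted p under 0.05 3 were lower in PARP1CKO (all genes 11.3%), while in PARP2CKO 1 was higher and 1 lower (4.83%). Tnip3, which encodes an A20-binding inhibitor, had 42.1 and 41.1 CPM in PARP1 WT against 33.0 and 32.2 CPM in PARP1CKO (-0.35, adjusted p = 0.211). In the PARP2 line it had 45.4 and 39.0 CPM without Cre and 51.9 and 46.1 CPM in PARP2CKO (0.21, adjusted p = 0.888). Tax1bp1 in PARP1CKO (-0.16) and Irak3 in PARP2CKO (-0.14) were the other genes of this list named by size of p.

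Of 14 receptors upstream of the pathway, 0 passed in either CKO comparison, and by unadjusted p under 0.05 2 were higher in PARP1CKO (all genes 11.3%) and 1 lower in PARP2CKO (4.83%), shares near those of all genes. Cd40, the receptor for the T cell ligand CD40L, had 6.07 and 5.46 CPM in PARP1 WT, then 8.43 and 9.93 CPM in PARP1CKO, 7.89 and 10.3 CPM in PARP2 WT, and in PARP2CKO 8.82 and 8.47 CPM. PARP1 WT thus stood apart as the lowest group. Its difference was 0.67 in PARP1CKO (adjusted p = 0.176) and 0.66 between the WT groups (adjusted p = 0.0449). Tnfrsf1b, a TNF receptor, had 198 and 212 CPM in PARP1 WT and 262 and 242 CPM in PARP2 WT, a difference of 0.30 (adjusted p = 0.0368). The count of called receptors between the WT groups was 2 of 14, against 3.16% of all genes. It lay between 0 and 3 with a library left out, with 0 without either PARP1 WT library or PARP2 WT replicate 2. With the replicate block neither Cd40 nor Tnfrsf1b passed. In the CKO comparisons Nod1 in PARP1CKO (0.39), and Nod2 (-0.32) and Tnfrsf11a (0.10) in PARP2CKO, completed the receptors named.

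Of 25 textbook target genes of NF-kB, 23 passed the filter. Il6 and Nos2 did not, with at most 9 and 3 counts in any library. The study had reported lower CCL3 and CCL4 in PARP2CKO from these libraries. This list holds both genes and was chosen with earlier results of these data known, so its counts are not independent of them. In PARP2CKO 1 of the 23 fell and 0 rose, against 0.053% of all genes in either direction. By unadjusted p under 0.05 2 were lower and 0 higher (all genes 4.83%), and the median was -0.05. Ccl3, a macrophage chemokine, had 105 and 146 CPM in PARP2 WT against 62.5 and 64.0 CPM in PARP2CKO (-0.99, adjusted p = 0.0465), and 136 and 132 CPM in PARP1 WT against 138 and 144 CPM in PARP1CKO. The call was lost without either PARP1 WT library or either PARP2CKO library, in the fit of 4 libraries, with a filter of 1 CPM in 2 libraries and with the replicate block. Ccl4, its neighbor in function, had 47.1 and 80.1 CPM in PARP2 WT against 26.5 and 34.9 CPM in PARP2CKO (-1.05, adjusted p = 0.485).

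Tnf, a cytokine that both activates the pathway and is induced by it, was between 54.4 and 70.4 CPM in all 8 libraries, and 0 of the 23 targets passed in PARP1CKO, where 2 were higher and 1 lower by unadjusted p under 0.05 and the median was 0.06. Cxcl2 (-1.07) and Marcksl1 (0.28) had the smallest unadjusted p-values there. Among the 10 members in PARP2CKO the largest difference was the 1.14-fold higher level of Tnfaip3, which did not pass.

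Nfkbia, Nfkbiz and Tnfaip3 are induced within minutes of a signal, so they were set beside 18 early response genes such as Fos and Egr1. That list too was chosen with earlier results of these data known, so its counts are not independent of them. In PARP1CKO 2 of the 18 fell and 0 rose, against 0.106% of all genes in either direction. By unadjusted p under 0.05 8 were lower (all genes 11.3% in either direction). A lower fitted level was found in 16 of the 18, and the median was -0.23, against 0.01 over all genes. Fos had 173 and 147 CPM in PARP1 WT against 69.7 and 47.1 CPM in PARP1CKO (-1.45, adjusted p = 0.0355). Dusp1, a phosphatase that turns off MAP kinases, had 61.0 and 54.2 CPM in PARP1 WT against 28.1 and 21.8 CPM in PARP1CKO (-1.20, adjusted p = 0.0187). Fosb (-3.08, adjusted p = 0.0549) and Egr1 (-2.51, adjusted p = 0.0597) had larger differences and did not pass, and they were named after their values were seen. Fosb had 6.82 and 6.45 CPM in PARP1 WT against 0.932 and 0.619 CPM in PARP1CKO. Among the members in the same libraries the differences were 0.12 for Nfkbia, -0.18 for Nfkbiz and -0.05 for Tnfaip3, and none of them passed.

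The count of called early response genes in PARP1CKO changed with the libraries in the fit. It was 0 without either PARP1 WT library or PARP1CKO replicate 2, 1 without either PARP2CKO library, 4 without either PARP2 WT library, and 5 without PARP1CKO replicate 1. With the replicate block it was 1, so Fos and Dusp1 did not both pass there. In PARP2CKO 0 of the 18 passed, 5 were lower by unadjusted p under 0.05 (all genes 4.83%), 12 had a lower fitted level and the median was -0.14, against -0.00140 over all genes, and Egr1 had 40.98 and 79.1 CPM in PARP2 WT against 17.6 and 22.6 CPM in PARP2CKO (-1.58, adjusted p = 0.538). Ier2 (-0.51) had the next smallest unadjusted p, while Fosb differed by -1.42 (adjusted p = 0.849). Between the WT groups 1 of the 18 passed, against 3.16% of all genes. It was Egr2, with 4.60 and 4.68 CPM in PARP1 WT and 10.9 and 11.1 CPM in PARP2 WT (1.25, adjusted p = 0.00159).

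**Figure D4:**
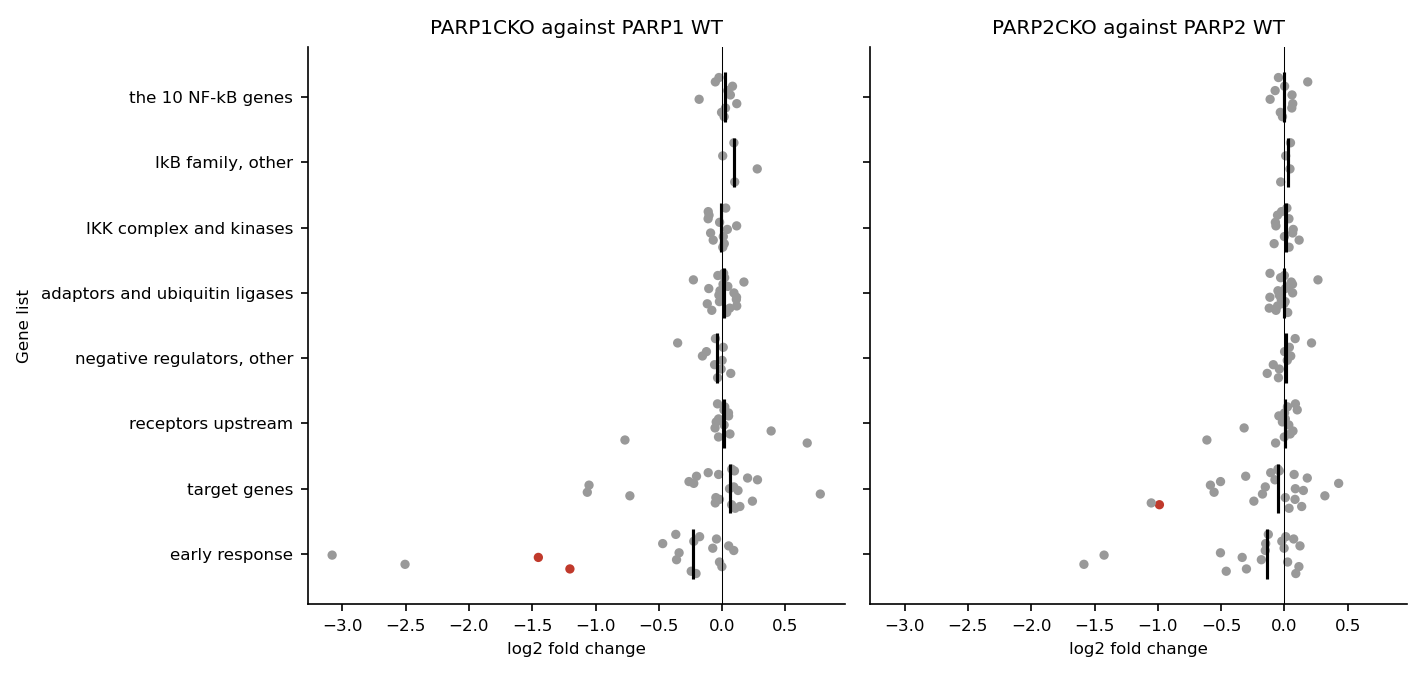
Log2 fold changes in the CKO comparisons for the 10 NF-kB genes and for the other genes of the pathway by list, with a point for each tested gene, red where the adjusted p-value is under 0.05, and a bar at the median of each list. The 10 genes cluster around 0 in both panels, while early response genes spread to lower values, with a median of -0.23 in PARP1CKO and -0.14 in PARP2CKO.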

How the data were processed

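The authors deposited raw counts per gene. Per the study's methods and the submitters' processing notes, single-end reads were mapped to mm10 with TopHat2 2.0.12, duplicates were marked with Picard 1.127 and reads were counted with featureCounts. The annotation, the strand setting and the treatment of marked duplicates are not given in the sources used here, so reads of overlapping genes may be shared. Counts were analysed in R 4.3.3 with edgeR 4.0.16: filterByExpr, TMM scaling, and the quasi-likelihood test in a fit of all 8 libraries with a mean per group, Benjamini-Hochberg adjustment over 13197 genes and a threshold of 0.05. CPM use TMM-scaled library sizes. Intervals are 95%. On simulated counts the test recovered the simulated fold changes, and its share of false calls was above the nominal level. In no group did the replicates match within counting error (chi-square per gene from 8.56 to 12.9), and depth was between 37852450 and 61845125 counts. Of 8 myeloid markers listed, Ly6g was not matched, and Adgre1 was matched as Emr1. Of the B cell markers, 1 is not reported here. Positions are from GENCODE M21 (GRCm38), promoters from RefSeq (GRCm38.p6). Alternatives were DESeq2 1.42.0, its size factors, library size alone, the likelihood-ratio test, the 4 libraries of a comparison, other filters, a replicate block and leaving out each library. The comparison of the lines and a crossed pairing were added after seeing the data. The members and gene lists were chosen with earlier results of these data known. All 10 members were named, with list genes called or, in the CKO comparisons, the 2 with the smallest p and separate groups. Figures used matplotlib 3.10.9.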

Additional observations from a re-analysis of the deposited data

How the results depend on the processing

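No member passed in the CKO comparisons, in their difference or between the WT groups under any alternative. Counts of all genes depended on the test. With DESeq2, the likelihood-ratio test and no filter on low counts, 86, 146 and 101 genes passed in PARP1CKO, 27, 39 and 26 in PARP2CKO, and 46, 72 and 61 in the difference, while the likelihood-ratio test and no filter gave 910 and 872 between the WT groups. With a library left out the counts were 1 to 34, 4 to 19, 1 to 16 and 85 to 566, and 1082 to 2327 between the lines. Of the members, 1 passed between the lines with library size alone and with DESeq2, 4 with the likelihood-ratio test, and 1 to 3 with a library left out. Among list genes in PARP1CKO, 1 negative regulator, 1 receptor and 1 target passed under some of DESeq2, the likelihood-ratio test and no filter, and 6, 6 and 5 early response genes under these (0 to 5 with a library left out). In PARP2CKO 2 targets passed with the likelihood-ratio test and with no filter, and 0 in the fit of 4 libraries or with 1 CPM in 2 libraries (0 to 2 with a library left out), with 1 early response gene under DESeq2, the likelihood-ratio test and no filter (0 to 1). In the difference 1 negative regulator, 1 target and 1 or 2 early response genes passed under these (targets 0 to 1). Between the WT groups 0 kinases passed with library size alone or in the fit of 4 libraries (0 to 1), 1 negative regulator passed under 7 alternatives (0 to 1), 1 receptor in the fit of 4 libraries (0 to 3), 3 and 4 targets (0 to 1) and 2 and 3 early response genes (1 to 2) with the likelihood-ratio test and no filter. The cause was not tested.

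Some fitted log2 differences of members changed sign, among them Nfkbiz in PARP1CKO, which had the largest difference of the members there (-0.18). With library size alone Relb was -0.025 in PARP2CKO, and Rela, Relb, Tnfaip3 and Ikbkb were -0.024, -0.026, -0.027 and -0.0038 between the WT groups, and Ikbkb -0.030 between the lines. Library size alone shifted the median of all genes by -0.026 in PARP2CKO, -0.039 between the WT groups and -0.050 between the lines, about as much as these members moved, so relative to all genes they moved little. With a library left out, the ranges in PARP1CKO were -0.059 to 0.047 for Nfkb1, -0.017 to 0.15 for Rel, -0.034 to 0.19 for Relb, -0.47 to 0.068 for Nfkbiz, -0.15 to 0.034 for Tnfaip3 and -0.013 to 0.038 for Ikbkb, and in PARP2CKO -0.058 to 0.055 for Relb. In the difference they were -0.079 to 0.027 for Nfkb1, -0.016 to 0.077 for Nfkb2, -0.091 to 0.078 for Rel, -0.19 to 0.036 for Relb, -0.18 to 0.36 for Nfkbiz and -0.062 to 0.024 for Traf6. Between the WT groups they were -0.14 to 0.027 for Rel, -0.033 to 0.061 for Rela, -0.10 to 0.13 for Relb and -0.020 to 0.043 for Tnfaip3, and between the lines -0.082 to 0.031 for Relb.

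Same-numbered libraries showed little sign of pairing (correlation of deviations -0.13 in the PARP1 line and 0.15 in the PARP2 line). The labels give no pairing, and these values cannot settle it. With the replicate block Relb was -0.00063 in PARP2CKO, and 1 early response gene in PARP1CKO, 0 targets in PARP2CKO, 0 receptors and 1 negative regulator between the WT groups passed. The block gave 14, 6, 3 and 315 calls over all genes in PARP1CKO, PARP2CKO, the difference and the WT groups. With the PARP1CKO numbers exchanged, an alternative added after seeing the data, 18 genes and 0 members passed in PARP1CKO. Between the lines 2 members passed with the block, since Nfkb2 did not (adjusted p = 0.0715). The 2 libraries per group limit every comparison.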
